A study of Mus musculus with 10 samples.

Results

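Plexins and semaphorins, paired families of receptors and ligands, were followed in mouse splenic B cells through 8 genes, namely the receptors Plxna4, Plxnb2, Plxnc1 and Plxnd1 and the ligands Sema4a, Sema4b, Sema4d and Sema7a. They are 8 of the 54532 genes in the count table and were found by symbol, each on a single row. The fibrosis group holds 5 libraries of splenic B cells from mice whose livers had become fibrotic over 4 weeks of intraperitoneal carbon tetrachloride (CCl4), a solvent toxic to hepatocytes. The control group holds 5 libraries of splenic B cells from wildtype mice. The sources used here give neither a vehicle for the control mice, nor the strain, sex and age of the animals, nor the way the B cells were isolated. No label ties a library to a mouse of its own, and p-values therefore cover the spread between libraries alone, which may be technical. The 8 genes were chosen by their counts in these fibrosis and control libraries, and their own differences are therefore given as a description without a test.

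Semaphorins are signalling proteins built around a shared fold, the sema domain, and were first studied as guidance cues for growing axons. Class 3 members are secreted, classes 4 to 6 span the membrane, and Sema7a is held to the membrane by a lipid anchor. Plexins are their main receptors, large proteins that carry a sema domain outside the cell and a GTPase-activating domain inside it that acts on small GTPases of the Ras family such as Rap1, so that binding changes adhesion and the cytoskeleton. In the immune system, Sema4d (CD100) is carried by lymphocytes, can be cut from the surface, and binds plexin-B1, plexin-B2 and the B cell surface protein Cd72. Sema4a binds plexin-D1 and Tim-2 in mice, and Sema7a binds plexin-C1 and integrins that contain the beta 1 chain.

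Total counts ranged from 13439100 to 17069393 in the fibrosis libraries and from 15912080 to 17954551 in the control libraries. All 7 B cell identity genes looked up (Ms4a1, Cd79a, Cd79b, Pax5, Ebf1, Cd22 and Blnk) were detected, with a summed level of 5118 to 7286 CPM (counts scaled to library size) in fibrosis and 4769 to 5447 CPM in control. Of these 7 genes, 4 (Ms4a1, Ebf1, Cd22 and Blnk) rose by edgeR, with a median log2 difference of 0.42 over the list; 7 rose without fibrosis 4 and 5, and 2 with scaling by library size only. All 6 proliferation markers fell, with sums of 341 to 529 CPM in fibrosis and 834 to 1076 CPM in control. Of 9 erythroid markers, 6 fell (median -1.80; 9 fell without fibrosis 4 and 5), although their sums overlapped between groups. Fibrosis 4 and 5 differed from the rest of their group in marker content. They held summed neutrophil markers of 3385 and 4287 CPM, against 246.7 to 929 CPM in fibrosis libraries 1 to 3 and 358 to 1120 CPM in control, and the lowest B cell identity sums of the fibrosis group (5118 and 5239 CPM). The differences of the 8 genes are therefore also given without these 2 libraries. Of the plexin and semaphorin genes outside the 8 that passed the filter, and of the partner genes named below as called, Sema3g, Sema6a and Sema6d changed their call without them. Over all 14283 genes tested by edgeR, 2654 (18.6%) passed an adjusted p of 0.05 as higher in fibrosis and 2451 (17.2%) as lower, 35.7% in all. With scaling by library size only, the split was 1777 higher and 3306 lower, and the median gene shifted by -0.11 on the log2 scale. In bulk RNA, fewer cells of a type and less RNA per cell cannot be told apart.

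Sema4d was the most abundant gene of either family. Levels of different genes are compared as deposited FPKM, which divides by gene length. In control libraries Sema4d stood at 59.4 ± 4.07 FPKM (SD, n = 5), and its lowest library (55.0) lay above the highest of the next gene, Sema4b at 37.1 ± 1.11 FPKM (highest 38.4). Plxnb2 followed at 29.6 ± 6.04 FPKM and was the most abundant plexin. Plxnd1 (15.9 ± 1.64), Sema7a (14.8 ± 0.612) and Sema4a (14.6 ± 2.95 FPKM) came next in control, and these 3 neighbours overlapped between libraries. Plxnc1 was below them at 9.19 ± 1.23 FPKM, and Plxna4 was last at 0.115 ± 0.0185 FPKM. In fibrosis the order ran Sema4d (56.9 ± 13.5), Sema4b (36.3 ± 10.3), Sema7a (27.7 ± 4.88), Plxnb2 (23.3 ± 4.67), Plxnd1 (15.4 ± 3.20), Plxnc1 (14.0 ± 2.004), Sema4a (12.9 ± 3.09) and Plxna4 (0.505 ± 0.191 FPKM; SD, n = 5). The ranges of all neighbours in the fibrosis order overlapped between libraries except Sema4a and Plxna4. Within each of the 5 fibrosis libraries, Sema4d still lay above Sema4b, Sema4b above Sema7a, and Plxnb2 above Plxnd1. The order of the others varied: Sema7a lay above Plxnb2 in 3 libraries, Plxnd1 above Plxnc1 in 3 and Plxnc1 above Sema4a in 2.

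**Figure D1:**
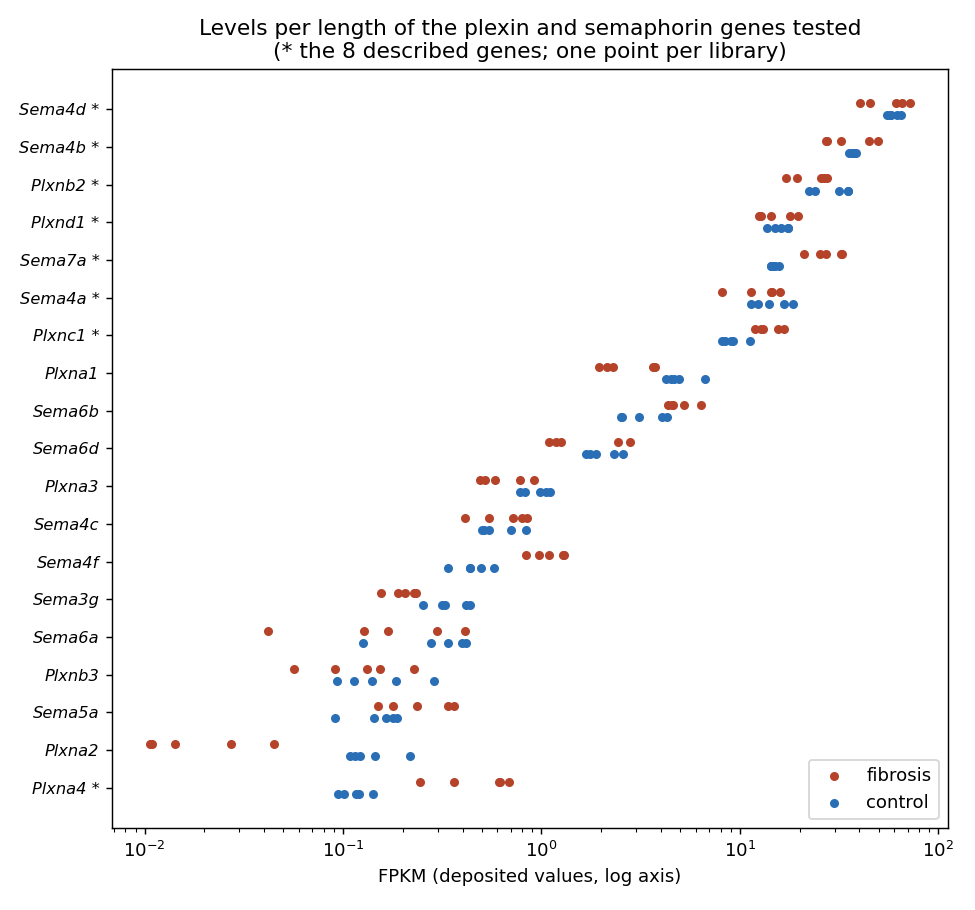
Levels of the 19 plexin and semaphorin genes that passed the filter on low counts, as deposited FPKM on a log axis, with 1 point per library, fibrosis above control in each row and an asterisk on the 8 described genes. Of these 8 genes, 7 take the top 7 rows, from Sema4d at 59.4 FPKM in control to Plxnc1 at 9.19 FPKM, and Plxna4 lies at the bottom with 0.115 FPKM in control.

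The 4 semaphorins together made up 93.1 ± 1.72% of the summed FPKM of the 20 semaphorin genes in fibrosis and 94.4 ± 0.902% in control (SD, n = 5 each). Within that sum, Sema7a took 18.5% to 21.8% in the fibrosis libraries and 10.6% to 11.8% in the control libraries, 2 ranges that do not meet. Sema4d took 39.5 ± 3.91% in fibrosis and 44.5 ± 2.28% in control. The 4 plexins made up 93.6 ± 1.42% of the summed FPKM of the 9 plexin genes in fibrosis and 89.7 ± 1.20% in control. Plxnc1 took 20.8% to 30.7% of the plexin sum in fibrosis and 11.8% to 20.7% in control, so its groups only just failed to meet. Plxnb2 took 40.8 ± 6.72% in fibrosis and 48.1 ± 4.61% in control, with overlapping libraries.

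Of the 8 genes, 3 (Plxna4, Plxnc1 and Sema7a) lay past the call threshold as higher in fibrosis, where 18.6% of all tested genes did. By edgeR none (0) was called lower (0 at an unadjusted p under 0.05; 0 adjusted and 1 unadjusted by DESeq2). The same 3 genes had all 5 fibrosis libraries above all 5 control libraries, which held for 11.4% of all tested genes (25.4% in either direction). The median log2 difference of the 8, fibrosis minus control, was -0.02, beside 0.05 over all tested genes. All 8 passed the filter on low counts.

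**Figure D2:**
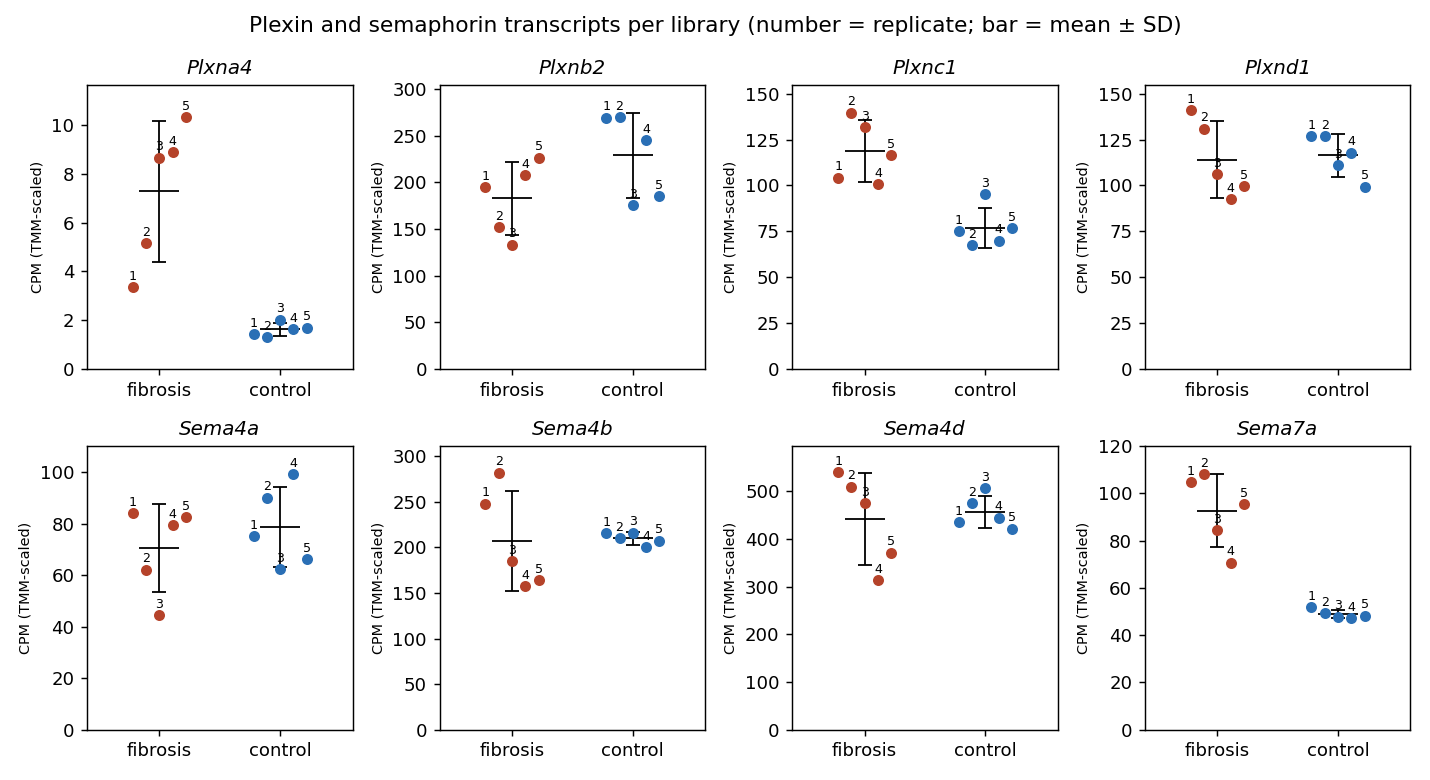
Level of each of the 8 genes as CPM scaled by TMM in 5 fibrosis and 5 control libraries, with the replicate number beside each point and the mean ± SD as a bar. The fibrosis libraries of Plxna4 (3.36 to 10.3 CPM), Plxnc1 (101 to 140 CPM) and Sema7a (70.7 to 108 CPM) sit above all of their control libraries, and those of the other 5 genes overlap with control.

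Sema7a, the lipid-anchored ligand of plexin-C1 and of beta 1 integrins, had 105, 108, 84.6, 70.7 and 95.4 CPM in fibrosis libraries 1 to 5, against 51.8, 49.4, 47.9, 47.1 and 48.3 CPM in control libraries 1 to 5. Every fibrosis library lay above every control library, and the control libraries were close together. The log2 difference was 0.92 ± 0.11 (SE), and 1.03 without fibrosis 4 and 5. It lies on chromosome 9 (57940112 to 57962865, plus strand, GRCm38).

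Plxnc1, the plexin that binds Sema7a, had 104, 139.6, 132, 101 and 116 CPM in fibrosis libraries 1 to 5, against 75.2, 67.5, 95.2, 69.97 and 76.7 CPM in control libraries 1 to 5. The groups did not overlap, though control 3 (95.2 CPM) was near fibrosis 4 (101 CPM). The log2 difference was 0.62 ± 0.12 (SE), and 0.71 without fibrosis 4 and 5. It lies on chromosome 10 (94790866 to 94944835, minus strand, GRCm38). The ratio of Sema7a to Plxnc1, both in FPKM, was 1.997 ± 0.351 in fibrosis and 1.63 ± 0.223 in control (SD, n = 5 each), and its libraries overlapped. The summed platelet, conventional dendritic cell, and endothelial and stromal markers were also higher in every fibrosis library than in any control library. Of 7 B cell identity genes, 4 rose by edgeR, beside 18.6% of all tested genes. The part of cell makeup in the Sema7a and Plxnc1 levels was not tested.

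The promoters of this ligand and its receptor are shown because both genes were higher in every fibrosis library. Each window runs from 250 bases before to 50 after the start site in RefSeq (GRCm38.p6), written 5′ to 3′ on the gene's own strand, and capitals mark every match to the motifs searched. The windows are chr9:57939862-57940161 on the plus strand for Sema7a and chr10:94944796-94945095 on the minus strand for Plxnc1.
Sema7a: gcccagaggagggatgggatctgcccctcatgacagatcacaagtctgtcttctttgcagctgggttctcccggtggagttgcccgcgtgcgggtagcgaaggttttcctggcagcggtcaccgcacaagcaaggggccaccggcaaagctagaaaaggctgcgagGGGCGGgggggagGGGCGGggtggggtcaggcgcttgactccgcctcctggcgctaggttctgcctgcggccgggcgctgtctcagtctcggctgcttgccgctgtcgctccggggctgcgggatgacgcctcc
Plxnc1: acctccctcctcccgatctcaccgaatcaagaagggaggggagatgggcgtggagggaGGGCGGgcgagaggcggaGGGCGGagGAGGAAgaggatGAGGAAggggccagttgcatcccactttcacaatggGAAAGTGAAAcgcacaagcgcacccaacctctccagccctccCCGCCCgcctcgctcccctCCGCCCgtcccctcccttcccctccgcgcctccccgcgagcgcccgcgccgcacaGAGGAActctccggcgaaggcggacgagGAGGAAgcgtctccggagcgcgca
The motifs were searched on both strands, and no matches overlapped in these windows. The GC box GGGCGG matched 2 times in the Sema7a window and 4 times in that of Plxnc1, and it occurs in 35.7% of the 32851 RefSeq promoter windows of that length. GAGGAA, the core that PU.1 binds, matched 4 times in the Plxnc1 window and not in that of Sema7a (28.3% of all windows hold it). A form of the interferon response element matched 1 time in the Plxnc1 window and occurs in 3.44% of all. Neither window held the ETS core CCGGAA (14.9% of all windows hold it), the AP-1 site TGANTCA (7.81%), the E-box CACGTG (7.15%) or a form of the NF-kB site (0.411%). Guanine and cytosine made up 67.3% of the Sema7a window and 69.0% of the Plxnc1 window, against a median of 52.7% over all windows. RefSeq windows were found for 7 of the 8 genes, the exception being Plxna4. A match is a run of letters and shows no binding.

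Likeness of profile was measured over the 10 libraries as the root mean square difference between 2 genes in log2(CPM + 0.5), each gene set against its own control mean, among 10704 protein-coding genes that averaged 2 CPM or more. The closest genes to Sema7a were H2-Ab1, Trim35 and Bend5, each 0.11 away. Those closest to Plxnc1 were Bbx, Smarca2 and Epc2, 0.07, 0.08 and 0.08 away.

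Sema4d, the lymphocyte semaphorin CD100, had 540.0, 509.5, 475.5, 314 and 371 CPM in fibrosis libraries 1 to 5, against 434, 475, 507, 445 and 422 CPM in control libraries 1 to 5. Fibrosis 1 and 2 lay above every control library and fibrosis 4 and 5 below every one, so the groups overlapped while the fibrosis libraries spread further (SD 95.8 in fibrosis and 34.3 CPM in control). The log2 difference was -0.05 ± 0.14 (SE) and 0.16 without fibrosis 4 and 5. Fibrosis 4 and 5 also had the lowest B cell identity sums of their group, 5118 and 5239 CPM against 6693 to 7286 CPM in fibrosis 1 to 3. In control, where those sums were 4769 to 5447 CPM, Sema4d was higher than in fibrosis 4 and 5. The part of cell makeup in this spread was not tested. The closest profiles were those of Pcnx, Casz1 and Pcnx3, at 0.06, 0.06 and 0.07.

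Sema4b, another membrane-spanning class 4 semaphorin, had 248, 282, 185, 158 and 164 CPM in fibrosis libraries 1 to 5, against 216, 209.8, 216, 199.9 and 207 CPM in control libraries 1 to 5. No fibrosis library fell inside the control range, since fibrosis 1 and 2 lay above it and fibrosis 3, 4 and 5 below it. The means were close, 207 CPM in fibrosis (SD 54.96) and 209.8 CPM in control (SD 6.74). The log2 difference of -0.02 ± 0.15 (SE), and 0.19 without fibrosis 4 and 5, averages over that split. Plcg2, Rnf31 and Capn15 had the closest profiles, at 0.07, 0.07 and 0.08.

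Plxnd1, a receptor for Sema3e and Sema4a, showed a similar order with a smaller spread. Its level was 141, 131, 106, 92.4 and 99.6 CPM in fibrosis libraries 1 to 5, against 127, 127, 111, 118 and 99.4 CPM in control libraries 1 to 5. Fibrosis 1 and 2 lay above all control libraries and fibrosis 4 below all of them. The log2 difference was -0.03 ± 0.12 (SE), and 0.12 without fibrosis 4 and 5. Ergic1, Git1 and Slc4a2 lay closest, at 0.05, 0.06 and 0.07.

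Sema4a, which costimulates T cells and is carried by dendritic cells and B cells, had 84.2, 62.3, 44.7, 79.5 and 82.8 CPM in fibrosis libraries 1 to 5, against 75.3, 90.2, 62.5, 99.5 and 66.4 CPM in control libraries 1 to 5. The groups overlapped, and fibrosis 3 was the lowest of all 10 libraries. Its log2 difference was -0.16 ± 0.18 (SE), and -0.30 without fibrosis 4 and 5. The ratio of Sema4a to its receptor gene Plxnd1, both in FPKM, was 0.860 ± 0.272 in fibrosis and 0.913 ± 0.149 in control (SD, n = 5 each). Its closest profiles were Fam234a, Ppp1r3b and Tcn2, at 0.09, 0.11 and 0.12.

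Plxnb2, a receptor for Sema4c and Sema4d, had 194.6, 152, 133, 208 and 226 CPM in fibrosis libraries 1 to 5, against 269, 270.0, 176, 245 and 185 CPM in control libraries 1 to 5. Fibrosis 2 and 3 lay below every control library, and the other 3 fibrosis libraries inside the control range. The log2 difference was -0.33 ± 0.17 (SE). It was -0.51 without fibrosis 4 and 5, where the gene passed the call threshold as lower. It also passed it with scaling by library size only (-0.44) and with no filter on low counts (-0.38). Plxnb2 was chosen by its counts in these same libraries, so its passes are a description and not a test. Igsf8, Grn and G6pdx had the closest profiles, at 0.10, 0.10 and 0.11.

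The monocyte and macrophage markers varied with Plxnb2 within each group, in part. Their sum was 1141, 1046, 855, 2722 and 3017 CPM in fibrosis libraries 1 to 5, against 2017, 2261, 1292, 2175 and 1532 CPM in control libraries 1 to 5. Among the fibrosis libraries both ran in the order 3, 2, 1, 4, 5 from low to high, and in control both were lowest in libraries 3 and 5. Sema4a was likewise lowest in fibrosis 3 and, within control, lowest in libraries 3 and 5. Over all 10 libraries the order did not hold: fibrosis 4 and 5 had the highest marker sums, yet their Plxnb2 levels (208 and 226 CPM) lay below those of control 1, 2 and 4 (269, 270.0 and 245 CPM). Of the 10 markers on that list, 1 (Marco) rose and none (0) fell by edgeR (0 at an unadjusted p under 0.05), and none was at 0 in every library. Without fibrosis 4 and 5, none (0) rose and 7 fell. The part of these cells in the Plxnb2 and Sema4a levels was not tested.

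Plxna4, a co-receptor with neuropilins for secreted class 3 semaphorins and a receptor for Sema6a and Sema6b, had the largest log2 difference of the 8 genes, on few reads. Its counts were 55, 84, 145, 112 and 159 in fibrosis libraries 1 to 5, against 26, 24, 38, 29 and 28 in control libraries 1 to 5. As CPM these were 3.36, 5.17, 8.67, 8.88 and 10.3 in fibrosis and 1.42, 1.32, 2.02, 1.64 and 1.70 in control. The groups did not overlap, and fibrosis 1 was the nearest to control. The log2 difference was 2.16 ± 0.29 (SE), and 1.83 without fibrosis 4 and 5. An antisense gene inside it, Plxna4os1, had 90 counts over the fibrosis libraries and 107 over the control libraries. The sources used here do not say whether counting used strand, so reads of this pair cannot be told apart with certainty.

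Platelet markers moved with Plxna4 over the fibrosis libraries. Their sum was 343, 429.8, 825, 1364 and 1418 CPM in fibrosis libraries 1 to 5, and 202 to 251 CPM in control. Plxna4 and this sum had the same order over the fibrosis libraries, lowest in library 1 and highest in library 5. Within control the order did not hold: library 5 had the lowest sum (202 CPM), yet its Plxna4 level (1.70 CPM) lay above those of control 1, 2 and 4. Of the 10 markers, 9 passed the filter and all 9 rose by edgeR, where 18.6% of all tested genes did, with a median log2 difference of 2.05, and Gp1bb had 2 counts in all. The closest profiles to Plxna4 were those of Acer2 (0.11), Gp6 (0.19), which is on the platelet list, and Tubb1 (0.20). The part of platelets in the level of Plxna4 was not tested. The summed conventional dendritic cell markers also did not overlap between groups, at 288 to 362 CPM in fibrosis and 177 to 193 CPM in control. Of those 8 markers, 5 rose, beside the same 18.6%, and 5 did not overlap, beside 11.4% of all tested genes. The summed endothelial and stromal markers did not overlap either, at 233 to 279 CPM in fibrosis and 190 to 210 CPM in control. Of those 6 markers, 3 were tested and 1 (Pecam1) rose, and each single marker overlapped between groups.

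**Figure D3:**
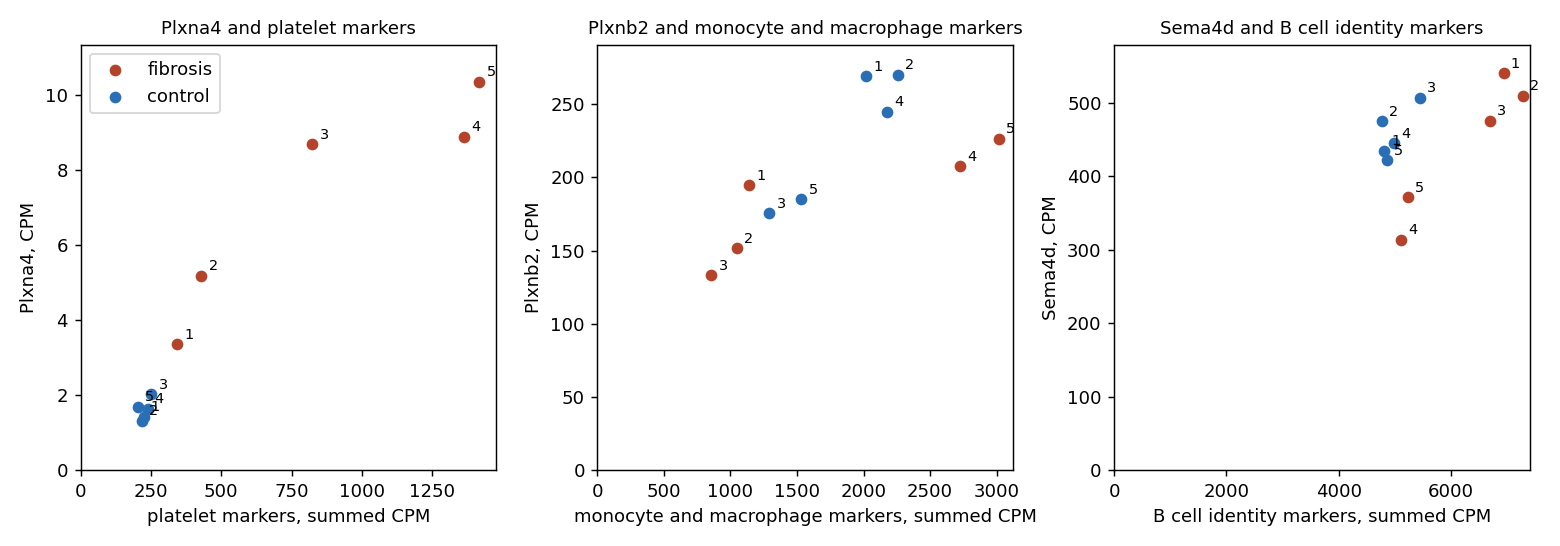
Level of Plxna4, Plxnb2 and Sema4d (CPM) against the summed CPM of platelet, monocyte and macrophage, and B cell identity markers, with 1 numbered point per library. The platelet sums reach 1418 CPM in fibrosis against at most 251 CPM in control, the lowest Plxnb2 level (133 CPM, fibrosis 3) lies at the lowest macrophage sum (855 CPM), and fibrosis 4 and 5 have the lowest Sema4d levels (314 and 371 CPM).

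The remaining plexin and semaphorin genes were taken without regard to their own values and tested over the whole table, but they are what was left once the 8 had been chosen. Of these 21 genes, 11 passed the filter on low counts. By edgeR's quasi-likelihood test with Benjamini-Hochberg adjustment over all genes, 3 rose, 3 fell and 5 were not called, where 18.6% of all tested genes rose and 17.2% fell. The median log2 difference of the 11 was -0.32, beside 0.05 over all tested genes.

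Among the plexins outside the 8, Plxna1, a receptor for Sema6d and, with neuropilin 1, for Sema3a, fell. It had 19.0, 20.9, 17.95, 33.6 and 35.9 CPM in fibrosis libraries 1 to 5, against 41.9, 60.1, 39.2, 44.5 and 40.6 CPM in control libraries 1 to 5 (log2 difference -0.83 ± 0.21 SE, adjusted p = 0.00732 by edgeR). All fibrosis libraries were below all control libraries, and fibrosis 4 and 5 were nearest to control. Without those 2 libraries the difference was -1.22. Plxna2, which binds Sema6a and class 3 semaphorins, fell to 0.376 ± 0.254 CPM in fibrosis, against 2.44 ± 0.766 CPM in control (log2 difference -2.68 ± 0.39 SE, adjusted p = 0.000203 by edgeR), also with no overlap. Its counts were 3, 4, 13, 6 and 3 in fibrosis libraries 1 to 5, against 36, 68, 40, 33 and 41 in control libraries 1 to 5. It passed the filter on low counts through its control libraries, and the size of its fall rests on few fibrosis reads. Within the class A plexins, Plxna1 and Plxna2 thus fell while Plxna4 lay above control in every fibrosis library, with few reads for Plxna2 and Plxna4. All 6 proliferation markers and 6 of 9 erythroid markers also fell, beside 17.2% of all tested genes. Each of the 12 had no overlap between groups, where 14% of all tested genes had every fibrosis library below control. The part of these markers in the falls of Plxna1 and Plxna2 was not tested. Plxna3, a receptor in the Sema3f pathway, was at -0.51 ± 0.19 (adjusted p = 0.0565 by edgeR). It passed the threshold in 6 of 20 alternatives: library size only, no filter, DESeq2, limma on log2(FPKM + 1), the replicate block, and without fibrosis 3 (adjusted p from 0.0132 to 0.189 over all alternatives). Plxnb3 was at -0.32 ± 0.40 and was not called (adjusted p = 0.571 by edgeR).

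Of the semaphorins outside the 8, Sema4f rose most. This class 4 gene had 5.68, 4.43, 5.21, 6.98 and 7.29 CPM in fibrosis libraries 1 to 5, against 2.62, 2.31, 1.81, 3.06 and 2.30 CPM in control libraries 1 to 5 (log2 difference 1.29 ± 0.20 SE, adjusted p = 0.000331 by edgeR), and the groups did not overlap. Sema6b, a membrane-spanning ligand of plexin-A4, rose to 20.2 ± 2.78 CPM in fibrosis, against 13.1 ± 3.27 CPM in control (log2 difference 0.62 ± 0.16 SE, adjusted p = 0.00985 by edgeR), and its lowest fibrosis library (17.5 CPM) was just above its highest control library (17.0 CPM). Sema5a was called higher at 0.75 ± 0.27 (adjusted p = 0.0459 by edgeR), with overlapping groups. Its call ended when any 1 of fibrosis 1, 2 and 3 or of the 5 control libraries was left out (0.57 to 0.82), and over all alternatives the adjusted p ran from 0.00509 to 0.285. Sema3g, a secreted ligand that acts through neuropilin 2, was lower in every fibrosis library at 0.935 ± 0.161 CPM, against 1.59 ± 0.350 CPM in control (log2 difference -0.76 ± 0.24 SE, adjusted p = 0.0272 by edgeR). Leaving out fibrosis 2 or 4, both fibrosis 4 and 5, or control 3 or 4 ended the call (-0.73 to -0.67), and over all alternatives the adjusted p ran from 0.0154 to 0.0865.

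Sema6a (-0.56 ± 0.48), Sema6d (-0.19 ± 0.28) and Sema4c (0.11 ± 0.24 SE), the main ligand of plexin-B2, were not called (adjusted p = 0.389, 0.627 and 0.747 by edgeR), and Sema4c changed sign with scaling by library size only and without fibrosis 4 and 5. Sema6d had 11.3, 13.4, 12.6, 26.1 and 31.3 CPM in fibrosis libraries 1 to 5, against 27.0, 24.4, 18.0, 19.8 and 18.6 CPM in control libraries 1 to 5. Fibrosis 1 to 3 were below every control library and fibrosis 5 above every one. Without fibrosis 4 and 5, Sema6d was at -0.79 (adjusted p = 0.00152 by edgeR; up to 0.894 over its alternatives) and Sema6a at -1.44 (adjusted p = 0.0254; up to 0.603). The remaining 10 genes did not pass the filter on low counts. Over all 10 libraries, Plxnb1, the receptor that binds Sema4d most tightly, had 85 counts, Sema4g 82, Sema3f 67, Sema6c 56, Sema3b 46, Sema3d 17, Sema3a 7, Sema5b 7, Sema3e 5 and Sema3c 4. With no filter, when all 21 genes entered the edgeR fit, 3 were called higher and 3 lower (3 and 7 at an unadjusted p under 0.05), and DESeq2 called 3 higher and 4 lower. The median of the 21 with no filter was 0.13, opposite in sign to that of the 11.

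**Figure D4:**
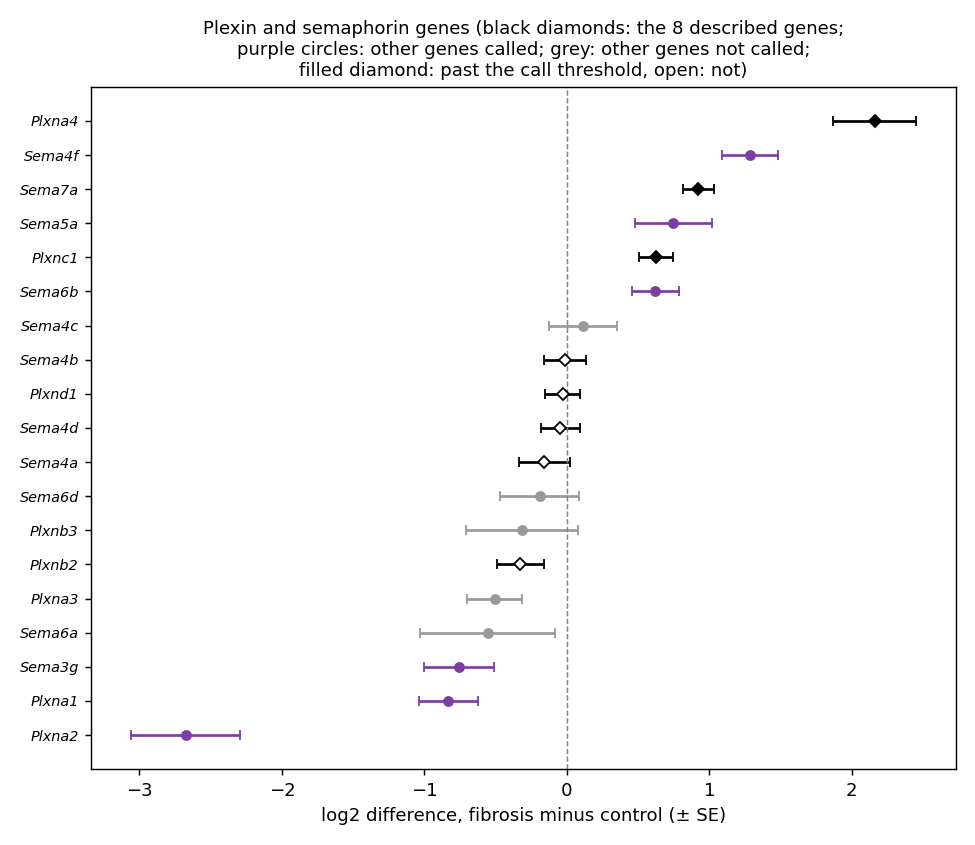
Log2 difference, fibrosis minus control, with its SE, for the 19 plexin and semaphorin genes that passed the filter. Diamonds are the 8 described genes and circles the other 11, of which Sema4f (1.29), Sema5a (0.75) and Sema6b (0.62) rose and Sema3g (-0.76), Plxna1 (-0.83) and Plxna2 (-2.68) fell.

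Co-receptors and other semaphorin receptors gave 1 rise and 1 fall among 12 genes, all tested (10 not called; median -0.09), beside 18.6% and 17.2% of all tested genes. Nrp2, the neuropilin for Sema3f and Sema3g, had 14.3, 16.8, 15.8, 8.17 and 13.6 CPM in fibrosis libraries 1 to 5, against 7.71, 6.82, 6.28, 5.83 and 4.66 CPM in control libraries 1 to 5. Every fibrosis library was above every control library, and fibrosis 4 was nearest to them (log2 difference 1.13 ± 0.19 SE, adjusted p = 0.000641 by edgeR). Nrp1, the neuropilin for Sema3a, fell to 7.51 ± 1.91 CPM in fibrosis, against 10.9 ± 1.54 CPM in control (log2 difference -0.53 ± 0.18 SE, adjusted p = 0.0307 by edgeR). Leaving out fibrosis 4 or control 1, 2 or 4 ended the call (-0.52 to -0.47), and over all alternatives the adjusted p ran from 0.00576 to 0.0822. Cd72, the receptor of Sema4d on B cells, stood at 53.0 FPKM in fibrosis and 55.4 FPKM in control, with a log2 difference of -0.05 ± 0.10 (adjusted p = 0.743 by edgeR). Itgb1, the integrin chain that takes part in Sema7a binding, was at 0.19 ± 0.14 and was not called (adjusted p = 0.331).

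Genes that act downstream of plexins included calls in both directions. Of 33 genes, 28 were tested, 9 rose, 3 fell and 16 were not called, beside 18.6% and 17.2% of all tested genes. The median log2 difference was 0.27, beside 0.05 over all tested genes. Rras2, a small GTPase of the R-Ras group, had 85.7, 88.6, 93.4, 103 and 95.8 CPM in fibrosis libraries 1 to 5, against 49.5, 42.1, 47.7, 45.2 and 47.3 CPM in control libraries 1 to 5. The groups were well apart (log2 difference 1.01 ± 0.08 SE, adjusted p = 1.02e-05 by edgeR).

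Other called genes of the list went both ways. Rap1a, the small GTPase on which plexins act, rose by 0.64 ± 0.11 (adjusted p = 0.000929), with 82.0 to 129 CPM in fibrosis and 61.2 to 72.3 CPM in control. Dpysl2, a microtubule-binding mediator of semaphorin signals, rose by 0.71 ± 0.11 (adjusted p = 0.000409), and the kinase gene Fyn by 0.53 ± 0.11 (adjusted p = 0.00181), all by edgeR. Mical3, an enzyme of the family that oxidises actin, fell to 38.3 ± 4.62 CPM in fibrosis, against 58.8 ± 6.15 CPM in control, a difference of -0.62 ± 0.10 (adjusted p = 0.000571). Tiam1, an activator of Rac1, fell to 16.7 ± 2.62 CPM in fibrosis, against 28.9 ± 4.16 CPM in control, a difference of -0.78 ± 0.13 (adjusted p = 0.000584). In each of these 5 genes the groups did not overlap. The sums of platelet, conventional dendritic cell, and endothelial and stromal markers were also higher in every fibrosis library than in any control library. Those of proliferation markers were lower in every fibrosis library. The part of all these markers in the differences was not tested.

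**Figure D5:**
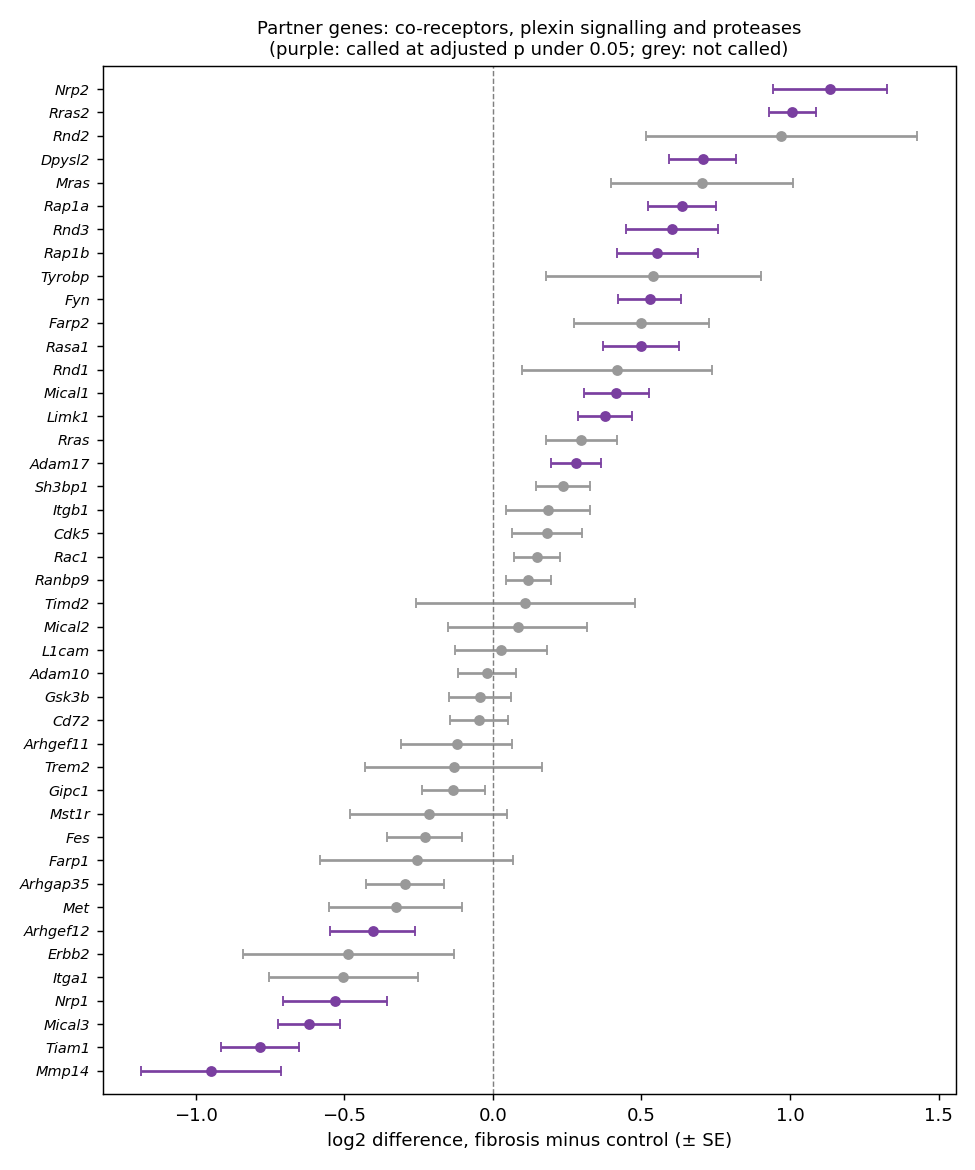
Log2 difference, fibrosis minus control, with its SE, for the 43 tested genes of the co-receptor, plexin signalling and protease lists, with called genes in purple. Nrp2 (1.13) and Rras2 (1.01) head the genes that rose, and Mmp14 (-0.95) and Tiam1 (-0.78) are the lowest of those that fell.

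Proteases known to cut Sema4d from the cell surface were the last list, with 3 of 4 genes tested, 1 of them called higher and 1 lower (18.6% and 17.2% of all tested genes). Adam17 rose slightly, by 0.28 ± 0.09 (SE; adjusted p = 0.0210 by edgeR), to 93.9 ± 6.88 CPM in fibrosis, against 77.3 ± 6.70 CPM in control. Leaving out fibrosis 2 or 3, or control 2, 4 or 5, ended the call (0.24 to 0.27), and over all alternatives the adjusted p ran from 0.0121 to 0.215. Mmp14, the membrane metalloprotease MT1-MMP, had 6.84, 3.51, 8.85, 8.80 and 11.2 CPM in fibrosis libraries 1 to 5, against 15.4, 17.0, 13.8, 12.5 and 16.9 CPM in control libraries 1 to 5. All fibrosis libraries were lower (log2 difference -0.95 ± 0.23 SE, adjusted p = 0.00687 by edgeR). Adam10 was at -0.02 ± 0.10 and was not called (adjusted p = 0.898), and Adamts4 had 9 counts in all.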

How the data were processed

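RNA from splenic B cells was sequenced in 5 fibrosis and 5 control libraries, grouped by the library names in the labels. Per the labels' protocols, 1 μg of RNA per sample was selected for poly-A, fragmented and primed with random hexamers. The submitters' processing notes name the build GRCm38; no source used here names the aligner, the counting program or the strand setting. The authors deposited raw counts of reads for each gene, and FPKM values, a unit scaled by gene length and library size. The start, end and strand of all 29 plexin and semaphorin genes equal those of GENCODE M21.

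Counts of all 54532 genes were filtered by filterByExpr (14283 kept), scaled by TMM and tested by edgeR 4.0.16 (R 4.3.3; quasi-likelihood, robust, no covariate) with Benjamini-Hochberg adjustment and a threshold of 0.05. CPM are counts over TMM-scaled library size. Differences are log2, fibrosis minus control, with the SE as the absolute difference over the square root of F. The median SE was 0.37 for genes under 1 CPM and 0.11 for those above 100 CPM. No pair of libraries within a group agreed within sampling noise (chi-square at least 5.40 times its degrees of freedom). The fit was tested on simulated data. It recovered 71 of 84 genes changed by a log2 of 1 in size and 107 of 107 changed by 2, with 9 false calls. Only changed genes that passed the filter again were counted. The simulated spread was shared by genes of like level, and no library was set apart as fibrosis 4 and 5 are. Recovery in the real data may therefore differ. Smaller differences were not simulated.

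Alternatives were 2 other scalings, 2 other filters, DESeq2 1.42.0 and limma 3.58.1. Limma was run on log2(FPKM + 1), with and without the filter, and on log2(FPKM + 0.1). A replicate block, leaving out each library, and leaving out fibrosis 4 and 5 were the others. The genes, lists and alternatives were chosen with earlier results of these data known. The text names all plexin and semaphorin genes, of each partner list up to 6 called genes by smallest p, and the 3 closest profiles per gene; Cd72, Itgb1, Adam10, Adamts4 and single markers were named outside that rule, after their values were seen. An item of the B cell marker list is not reported here and is in no sum.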

Additional observations from a re-analysis of the deposited data

Results flagged for a closer look

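Each group of 5 libraries was searched for a library whose gap to its nearest neighbour exceeded 0.710 of the group's range (Dixon's 95% value), which chance gives in about 1 of 20 groups. Of 82 such groups, 3 held one, all in control. Plxna1 was at 60.1 CPM in control 2, with the next control library at 44.5 CPM. Dpysl2 was at 20.6 CPM in control 1, with the next at 17.6 CPM. The summed NK cell markers were at 87.5 CPM in control 4, with the next at 57.1 CPM.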

How the results depend on the processing

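Over 20 alternatives, Plxna4, Plxnc1 and Sema7a stayed past the threshold as higher. These genes, like Plxnb2 below, were chosen by their counts in the same libraries. Passing the threshold therefore describes how their values depend on processing and is no test of a difference. The log2 difference of Plxna4 was 0.42 with log2(FPKM + 1), with or without a filter, and 1.43 with log2(FPKM + 0.1). At its low FPKM the added constant lowers it by construction. Other genes of low level also varied in size over all alternatives. Plxna2 ran from -3.17 to -0.16, Sema3g from -0.86 to -0.17 and Sema4f from 0.52 to 1.38. Plxnb2 lay between -0.51 and -0.25 and passed only in the 3 settings named above. Plxnd1, Sema4b and Sema4d changed sign between settings without a call in any. Leaving out 1 library gave Sema7a 0.86 to 1.01 and Plxnc1 0.56 to 0.71.

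The plexin signalling list had 5 lower calls of 28 tested with library size only, where 3306 of 14283 tested genes were lower and 1777 higher. The co-receptor list had 3 lower calls of 12 tested without fibrosis 4 and 5, where 2743 of 14607 tested genes were lower. It had 0 with limma on unfiltered log2(FPKM + 1) (1 at an unadjusted p under 0.05), and 0 to 2 when 1 library was left out. The protease list had 0 higher calls by edgeR with library size only or no filter (0 unadjusted in both) and by limma on unfiltered FPKM (1 unadjusted), and 0 to 1 when 1 library was left out. Causes were not tested.

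Replicate numbers were not shown to pair libraries: deviations of same-numbered libraries correlated at 0.12, -0.14, 0.47, 0.29 and -0.29 across genes. For numbers 3 and 4 the same-numbered library of the other group was the best correlated in both directions. This did not hold for numbers 1, 2 and 5. With the replicate number as a block, 2677 genes were higher and 2534 lower, Plxna4 was at 2.09, Plxnc1 at 0.62 and Sema7a at 0.91, Plxna3 was called lower (-0.53, adjusted p = 0.0347 by edgeR) and Sema3g was not called (-0.74, adjusted p = 0.0602).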
